A study of Sus scrofa with 12 samples.

Results

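AMP-activated protein kinase (AMPK) is assembled from a catalytic alpha, a scaffold beta and a nucleotide-binding gamma subunit, and 7 genes encode these subunits: PRKAG3, PRKAG1, PRKAG2, PRKAA1, PRKAA2, PRKAB1 and PRKAB2. All 7 were represented on the array, by 9 of the 23999 probe sets that were not controls, and by 7 of the 6765 genes named by a single symbol. Members were taken as all probe sets annotated with one of these symbols. The family was chosen by the signal of PRKAG3 over the groups of these same animals, which was already known, so its differences over stress response and aggressiveness are given as a description without a test. The other 6 genes came in through their family, and their differences were tested.

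Liver RNA of 12 adult German Landrace pigs was hybridised to the Affymetrix porcine array, 1 array per animal, to study psychosocial stress. High-high animals had high stress response and high aggressiveness, high-low animals high stress response and low aggressiveness, low-high animals low stress response and high aggressiveness, and low-low animals low levels of both. Each of these 4 groups held 3 animals, 1 female and 2 males, and no animal carried a treatment or a genetic change according to the labels. How stress response and aggressiveness were scored is not given there, and with 1 array per animal and few animals the precision of each value is limited.

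AMPK senses the energy state of the cell. The gamma subunit binds AMP, ADP or ATP, the beta subunit binds glycogen and holds the complex together, and the alpha subunit phosphorylates its targets once an upstream kinase such as LKB1 has phosphorylated it. In liver the kinase is known for restraining the synthesis of fatty acids and sterols and for favouring the oxidation of fatty acids. Each class has several genes, and PRKAG3, the gamma 3 subunit, is known mainly from skeletal muscle. An inherited change in PRKAG3 is known to raise muscle glycogen in Hampshire pigs.

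Signals are linear probe set values scaled per array by the authors. Differences are on the scale of log2(signal + 16), high minus low or males minus females, with the standard error (SE) of a limma fit across all probe sets, which understates changes of dim probe sets. A signal of 40.6 was the lowest mean that a probe set needed to be tested, and it serves below as a mark for dim values. All 9 probe sets passed this filter by their mean over the 12 animals. Only PRKAG3 (in 3 animals) and PRKAB2 (in 1 animal) had single values below the mark. Calls of detection were not used here, so whether a dim signal stood above background is not known. Levels of different probe sets are not compared with each other, because probes differ in their response.

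Of the gamma subunits, PRKAG3 (1 probe set) had its lowest signals in the high-high livers. The high-high animals had signals of 35.7, 33.7 and 23.6. The high-low animals had signals of 105.4, 158.2 and 98.3. The low-high animals had signals of 127.8, 128.8 and 82.5, and the low-low animals 85.9, 117.1 and 105.0. All 3 high-high animals lay below each of the other 9 and below 40.6, while the other 3 groups overlapped with each other. In the whole array, 57 of 16000 probe sets (0.356%) had all 3 high-high animals below the other 9, and PRKAG3 was the one member among them. Since this pattern chose the family, nothing is read from that share.

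The means of PRKAG3 were 31.0 ± 6.52 in high-high, 120.7 ± 32.7 in high-low, 113.0 ± 26.4 in low-high and 102.7 ± 15.7 in low-low livers (SD, n = 3 each). In order of the means high-low stood first, followed by low-high, low-low and high-high, and the first 3 did not differ beyond their spread. At high stress response, high against low aggressiveness gave a ratio of means of 0.257 and a log2 difference of -1.52 ± 0.18 (SE). At high aggressiveness, high against low stress response gave a ratio of 0.274 and a log2 difference of -1.44 ± 0.18. Where the other factor was low, the differences were small, with 0.19 ± 0.18 for stress response and 0.11 ± 0.18 for aggressiveness. The difference between these stress response effects, the interaction, was -1.63 ± 0.26. Averaged over the other factor the differences were -0.63 ± 0.27 for stress response and -0.71 ± 0.27 for aggressiveness, and both contained the same 3 high-high animals.

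Because the high-high signals were dim, the size of the PRKAG3 difference depended on the constant added before the logarithm. The interaction was -2.04 with a constant of 1 and -1.03 with a constant of 64. The mean was 2.97 times the mark of 40.6 in high-low, 2.79 times in low-high and 2.53 times in low-low livers. That mark comes from the filter and is not a limit of detection, so these ratios set no lower bound on the difference. Omitting single animals moved the interaction between -1.82 and -1.49. Among males alone it was -1.66. It was -1.86 without high-high 3 and high-low 3, the arrays with the lowest median correlations with the others (0.953 and 0.957). The probe set was not chosen on sex, and there the groups overlapped, with 100.6 ± 44.5 in males (SD, n = 8) and 74.4 ± 35.3 in females (SD, n = 4). The log2 difference of 0.36 ± 0.29 (SE) did not pass (limma, adjusted p = 0.949).

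**Figure D1:**
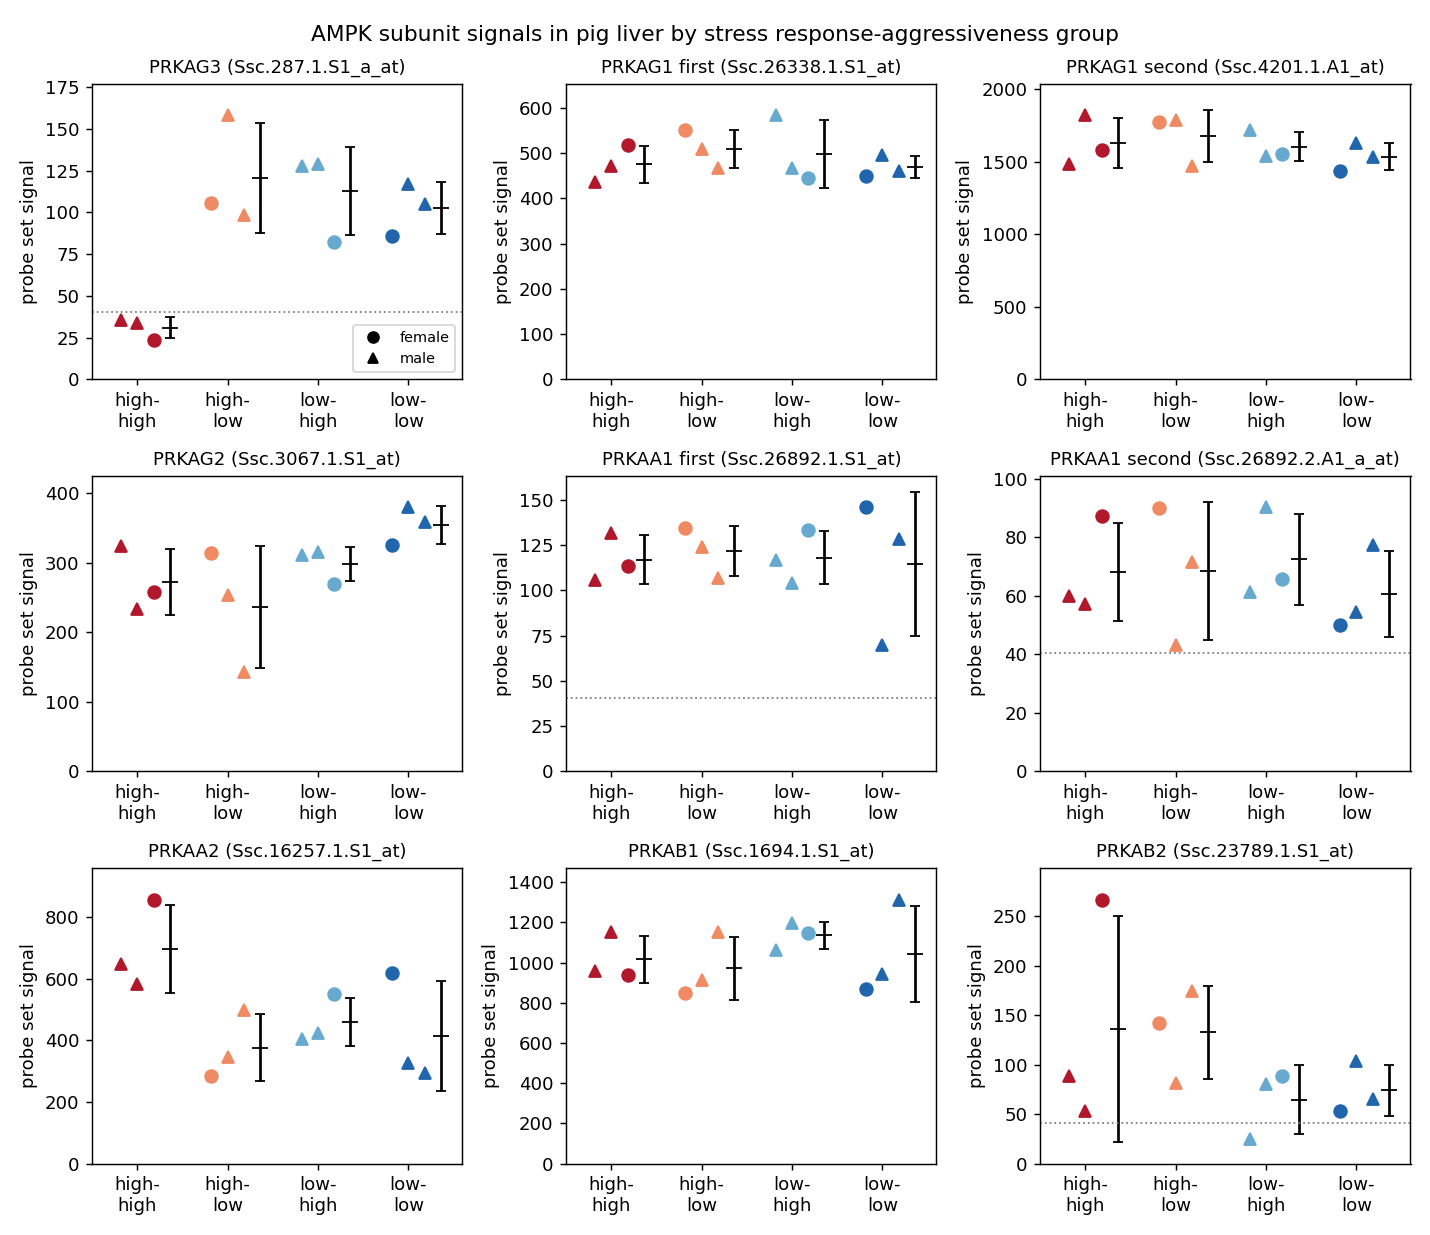
Probe set signal (linear, vertical axes from 0) of the 9 AMPK subunit probe sets in 12 pig livers, by stress response and aggressiveness group; PRKAG1 and PRKAA1 have a first and a second panel. Circles are females, triangles males, bars mean ± SD of 3 animals, and the dotted line marks a signal of 40.6. PRKAG3 lies at 23.6 to 35.7 in the high-high animals and at 82.5 to 158.2 in the other 9.

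The other gamma subunits did not share this pattern. PRKAG1, the gamma 1 subunit found in most tissues, was the steadiest member and had 2 probe sets. The first had signals of 436.1 to 518.7 in high-high, 467.1 to 550.4 in high-low, 444.1 to 583.7 in low-high and 449.0 to 495.8 in low-low livers. The second had 1483 to 1822 in high-high, 1469 to 1790 in high-low, 1542 to 1723 in low-high and 1441 to 1628 in low-low livers. The groups overlapped in both. The SD of the log2 values over all animals was 0.13 and 0.12, and only 2.92% and 2.14% of the tested probe sets varied less. For stress response the differences were 0.03 ± 0.11 and 0.07 ± 0.11, and for aggressiveness -0.01 ± 0.11 and 0.01 ± 0.11 (SE). The 95% intervals for stress response ran from -0.22 to 0.28 and from -0.17 to 0.31, so larger shifts of PRKAG1 than these lay outside them. The sign of the small differences of the first for stress response and of the second for aggressiveness turned when arrays were centred on their median.

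PRKAG2, the gamma 2 subunit known from heart and many other tissues, had a lower mean signal at high stress response, which did not pass the test. The high-high animals had signals of 324.7, 233.8 and 258.2, and the high-low animals 314.8, 253.3 and 142.4. The low-high animals had 310.7, 315.1 and 269.9, and the low-low animals 325.2, 379.7 and 358.4. The 3 low-low animals lay above the other 9, but the nearest values were 325.2 and 324.7. The share of all probe sets with such a separation was not counted. The lowest value belonged to high-low 3, 1 of the 2 arrays that stood apart. The means were 254.5 ± 65.7 in the 6 animals with high stress response and 326.5 ± 38.5 in the 6 with low (SD), and the ranges overlapped. The log2 difference was -0.37 ± 0.19 (SE, limma, adjusted p = 0.642), and -0.21 without high-low 3. Within low aggressiveness the high-low and low-low ranges did not overlap, and the share of all probe sets with this was not counted either. The difference there was -0.61 ± 0.26 (limma, adjusted p = 0.941), and -0.30 without high-low 3. The interaction of 0.48 ± 0.36 had the opposite sign to that of PRKAG3 and did not pass (adjusted p = 0.999). It was 0.16 without high-low 3.

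Of the catalytic subunits, PRKAA2, the alpha 2 subunit, had its highest group mean in the livers in which PRKAG3 was lowest. The high-high animals had signals of 648.7, 582.6 and 856.0, and the high-low animals 285.6, 345.5 and 497.1. The low-high animals had 403.7, 424.7 and 548.7, and the low-low animals 619.1, 327.7 and 294.7. The high-high range lay above the high-low and low-high ranges but overlapped with low-low, through low-low 1. The share of all probe sets with such separations of 3 against 3 animals was not counted, so nothing is read from them. At high aggressiveness the mean was 577.4 ± 165.6, against 395.0 ± 133.9 at low (SD, n = 6 each). The log2 difference for aggressiveness was 0.54 ± 0.21 (SE), with a 95% interval from 0.08 to 1.00. Its unadjusted limma p of 0.0251 became 1.00 after adjustment over all probe sets, and without high-low 1 the difference was 0.33.

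For stress response PRKAA2 differed by 0.24 ± 0.21 (SE, limma, adjusted p = 0.811), by 0.08 when both arrays that stood apart were left out, by 0.45 without high-low 1 and by 0.48 in males alone. Within high stress response the difference for aggressiveness was 0.88 ± 0.28 (adjusted p = 0.999), and 0.50 without high-low 1. Within high aggressiveness the difference for stress response was 0.58 ± 0.28 (adjusted p = 0.835). The interaction was 0.67 ± 0.39 (adjusted p = 0.999), and 0.30 without high-low 1. None of these passed.

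PRKAA1, the alpha 1 subunit, had 2 probe sets that did not follow each other over the animals (r = 0.02, n = 12 arrays). In the first, signals were 105.5 to 131.9 in high-high, 106.7 to 134.4 in high-low, 103.9 to 133.2 in low-high and 69.9 to 145.7 in low-low livers. In the second they were 57.0 to 87.4 in high-high, 43.3 to 90.2 in high-low, 61.3 to 90.2 in low-high and 50.1 to 77.5 in low-low livers. All groups overlapped. The differences for stress response were 0.06 ± 0.15 and 0.02 ± 0.17, and for aggressiveness 0.02 ± 0.15 and 0.11 ± 0.17 (SE). The second probe set came close to the mark of 40.6 and lost the sign of its stress response difference under median centring (-0.025) and quantile normalization (-0.025), as did the aggressiveness difference of the first under median centring (-0.003). The pair of PRKAG1 probe sets, in contrast, had r = 0.66 over the same arrays.

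Of the scaffold subunits, PRKAB1, the beta 1 subunit and the main form in mouse liver, had signals of 938.7 to 1150 in high-high and 849.4 to 1150 in high-low livers. The low-high animals had 1063 to 1196 and the low-low animals 868.8 to 1313. All groups overlapped, and the differences were -0.13 ± 0.13 for stress response and 0.11 ± 0.13 for aggressiveness (SE). Neither passed (limma, adjusted p = 0.846 and 1.00). Without low-low 3 they were -0.06 and 0.17, and without low-low 2 the aggressiveness difference was 0.06.

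PRKAB2, the beta 2 subunit known from muscle, varied most of all members, with a log2 SD of 0.73 over all animals. The high-high animals had signals of 88.6, 53.6 and 266.8, and the high-low animals 142.6, 81.1 and 174.2. The low-high animals had 24.6, 80.8 and 88.6, and the low-low animals 53.5, 103.2 and 65.3. The single value of 266.8 in high-high 3 lay far above the rest, and the groups overlapped. In both high-high and high-low the highest values lay above every animal with low stress response. The means were 134.5 ± 78.3 in the 6 animals with high stress response and 69.3 ± 28.0 in the 6 with low (SD). The log2 difference of 0.74 ± 0.32 (SE) had an unadjusted limma p of 0.0427 and an adjusted p of 0.590. It was 0.51 without high-high 3 and 0.38 without high-high 3 and high-low 3. For aggressiveness the difference was -0.20 ± 0.32, which did not pass (adjusted p = 1.00) and was -0.43 without high-high 3 and -0.04 without low-high 1.

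**Figure D2:**
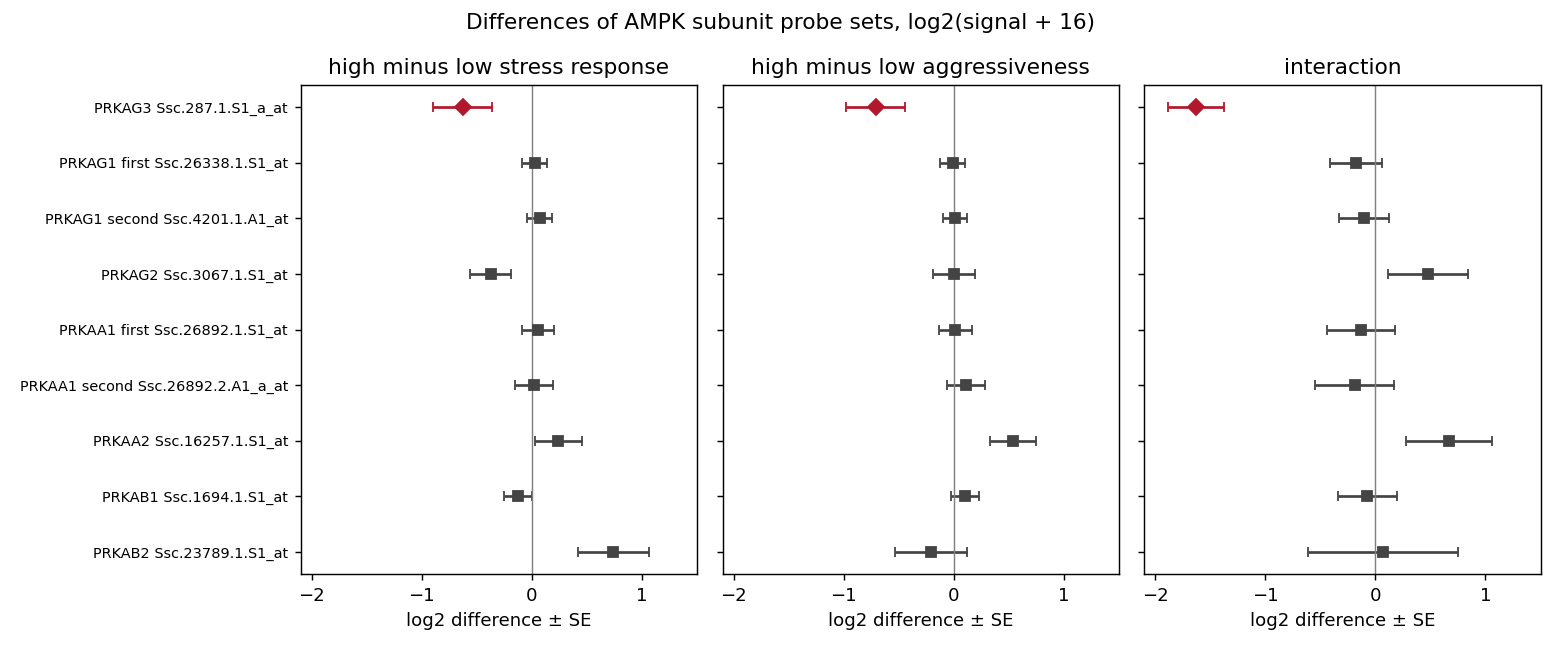
Difference in log2(signal + 16) with its SE for the 9 AMPK subunit probe sets, high minus low stress response (left), high minus low aggressiveness (middle) and their interaction (right). PRKAG3 (diamonds) was the gene the family was chosen by and carries no test; its interaction is -1.63, while the other 8 probe sets lie between -0.19 and 0.67.

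Counted over the 8 probe sets other than PRKAG3, 0 passed at an adjusted p under 0.05 in limma for stress response, against 0% of all 16000 probe sets tested. At an unadjusted p under 0.05 there was 1, PRKAB2 (higher), against 8.16% of all probe sets. For aggressiveness 0 passed, against 0% of all, and 1, PRKAA2 (higher), had an unadjusted p under 0.05, against 3.22% of all. For the interaction 0 passed, against 0% of all, and 0 had an unadjusted p under 0.05, against 3.87% of all. A count of 1 in 8 differs from these shares by less than a single probe set. The median differences of the 8 were 0.04 for stress response, 0.01 for aggressiveness and -0.09 for the interaction, beside 0.03, 0.01 and -0.00 over all probe sets.

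Males against females gave 0 of the 9 member probe sets at an adjusted p under 0.05, against 0.0688% of all, and 0 at an unadjusted p under 0.05, against 5.21% of all. The member differences ran from -0.55 ± 0.34 for PRKAB2 to 0.36 ± 0.29 (SE) for PRKAG3. Without high-high 3 they were -0.20 for PRKAB2 and 0.19 for PRKAG3, and without high-low 1 PRKAG3 was 0.58. The median was -0.05, beside -0.04 over all probe sets. Within single levels of the other factor 0 of the 8 passed in limma in any of the 4 comparisons. The shares of all probe sets that passed were 0% for stress response within high aggressiveness, 0% for stress response within low aggressiveness, 0.0125% for aggressiveness within high stress response and 0% for aggressiveness within low stress response. At an unadjusted p under 0.05 there was 1 for stress response within low aggressiveness, PRKAG2 (lower), against 5.12% of all, and 1 for aggressiveness within high stress response, PRKAA2 (higher), against 3.63% of all. There were 0 for stress response within high aggressiveness, against 6.12% of all, and 0 for aggressiveness within low stress response, against 3.2% of all.

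Pairs of different members without PRKAG3 had Pearson r between -0.39 and 0.48 over the 12 arrays. The lowest was the second PRKAG1 probe set with PRKAA2, and the highest the second PRKAA1 probe set with PRKAB2. The pair PRKAG3 and PRKAA2 had a Pearson r of -0.80 over all 12 arrays, and of -0.54 over the 9 arrays outside the high-high group, so part of the first value came from the separation of the high-high animals. With the other member probe sets PRKAG3 had r between -0.34 (PRKAB2) and 0.26 (the first of PRKAG1) over 12 arrays. Over the 9 arrays outside the high-high group, r was 0.55 and 0.67 with the PRKAG1 probe sets and between -0.34 and 0.10 with those of PRKAG2, PRKAA1, PRKAB1 and PRKAB2. These values describe arrays that share their hybridisation and scaling, and carry no p.

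Skeletal muscle RNA was looked at beside PRKAG3 because that subunit is known from muscle. Of 21 marker genes listed, 16 were on the array, and 12 of these had means below the filter, among them the fast myosin MYH2, creatine kinase CKM, the giant sarcomere proteins TTN and NEB, and the calcium pump ATP2A1. The summed signal of all 16 was 413.2 to 634.2 in high-high, 517.6 to 600.4 in high-low, 525.7 to 735.3 in low-high and 541.6 to 647.0 in low-low livers, so the groups overlapped. CKM had means of 26.4 in high-high, 53.2 in high-low, 38.9 in low-high and 40.9 in low-low livers, and r = 0.37 with PRKAG3. The slow myosin MYH7, which passed the filter, had means of 54.0 in high-high, 55.5 in high-low, 74.0 in low-high and 78.1 in low-low livers. In the other 3 genes, the probe set that passed the filter did not have its lowest mean in high-high livers. ENO3, an enolase of muscle, had means of 77.9 in high-high, 43.5 in high-low, 112.6 in low-high and 72.7 in low-low livers. Its unadjusted limma p was 0.00597 for aggressiveness (0.65) and 0.0328 for stress response (-0.47), and neither passed after adjustment. PYGM, the muscle glycogen phosphorylase, had means of 84.4, 96.8, 78.1 and 82.2 in the same 4 groups. PGAM2, a muscle phosphoglycerate mutase, had 71.4, 85.9, 65.7 and 55.8. Among probe sets below the filter, another of PYGM had 24.8, 47.5, 46.4 and 40.1, and r = 0.48 with PRKAG3. Like CKM, the markers NEB (32.1 in high-high livers), MYLPF (11.3) and a TTN probe set (13.0) had their lowest means there. In contrast, MYH2 (8.05, r = -0.50), TNNC2 (32.4) and an ATP2A1 probe set (28.0) had their highest means there. The 8 hepatocyte markers, ALB and APOA1 among them, were all bright, with sums of 329162 to 332619 in high-high, 295614 to 336273 in high-low, 283770 to 385797 in low-high and 260575 to 328758 in low-low livers.

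Summed markers of bile duct cells (KRT19 and EPCAM among them) were 115.5 to 192.3 in high-high, 172.2 to 268.9 in high-low, 159.2 to 206.3 in low-high and 165.4 to 231.8 in low-low livers. The median of the high-high animals, 115.6, was the lowest of the 4 groups, and the ranges overlapped. Summed markers of Kupffer cells, CD163 and MARCO, had higher medians in both groups with high stress response. The sums were 1722 to 2623 in high-high and 1659 to 2102 in high-low livers, against 1053 to 1461 in low-high and 1241 to 1940 in low-low livers. Both ranges at high stress response lay above the low-high range and overlapped with the low-low range. The sum followed CD163 (0.57 for stress response), while MARCO had the opposite sign (-0.78), and neither passed in limma (adjusted p = 0.523 for each). Stellate sums (DCN, COL3A1 and RGS5) were 840.9 to 1003 in high-high, 904.5 to 2066 in high-low, 792.4 to 1224 in low-high and 763.5 to 1542 in low-low livers, with medians of 903.9 in high-high and 1909 in high-low livers. For aggressiveness within high stress response DCN differed by -0.80 and RGS5 by -0.78, while COL3A1 differed by 0.10. None passed (limma, adjusted p = 0.999 for each). Endothelial sums lay between 3465 and 4782 over all livers, with overlapping groups. VWF was a small part of the sum (mean signal 185.7) and had an interaction of -1.74 ± 0.85 (SE). That of PECAM1 was -0.14 and that of CDH5 -0.15, and none passed (limma, adjusted p = 0.999 for each). The log2 ratio of 3' to 5' signal of the control transcript EF1A, a sign of RNA quality, was 0.872 to 0.962 in high-high, 0.685 to 0.748 in high-low, 0.757 to 0.993 in low-high and 0.693 to 0.734 in low-low livers. With the mean of the control ratios as a covariate, whose group ranges overlapped, the interaction of PRKAG3 was -1.61. For EF1A itself, the high-high and low-high ranges lay above the high-low and low-low ranges. The EF1A ratio alone was not fitted. Over all livers the log2 ratio of actin ran from 4.49 to 5.44 and that of GAPDH from 0.606 to 1.03. Actin was therefore the largest part of the mean used as covariate. In bulk liver, fewer cells of a type and less RNA per cell cannot be told apart, and the part of these markers in the PRKAG3 difference was not tested.

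The genes around the kinase were read from 4 lists. Of 18 upstream regulators, 8 were measured and passed the filter, and 0 of these passed for stress response, aggressiveness or the interaction, at the adjusted or the unadjusted threshold. STK11, which encodes LKB1, the main activating kinase in liver, had a difference of 0.20 for stress response and 0.11 for aggressiveness. The 5 genes named for this list were the adiponectin receptors ADIPOR2 (-0.25 for stress response) and ADIPOR1 (0.03), the catalytic subunits of protein phosphatase 2A PPP2CA (0.18) and PPP2CB (-0.08), and the LKB1 partner STRADB (-0.06). Their differences for aggressiveness lay between -0.18 and 0.06. The list medians were 0.04 and -0.00, close to the 0.03 and 0.01 of all probe sets.

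Of 28 substrates and targets, 14 were on the array and 11 passed the filter, and 0 passed either threshold for the same 3 comparisons. CPT1A, which brings fatty acids into mitochondria for oxidation, differed by 0.25 for stress response and 0.09 for aggressiveness. HNF4A, a transcription factor of hepatocytes, differed by 0.17 and 0.11. PNPLA2, the lipase that starts triglyceride breakdown, differed by -0.21 and 0.35. HDAC5, a histone deacetylase, differed by -0.20 and -0.10, and GPAM, the first enzyme of glycerolipid synthesis, by -0.20 and 0.04. These differences run both ways, and the list medians were -0.07 for stress response and -0.05 for aggressiveness.

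Of 14 genes of adenine nucleotide metabolism, which sets the AMP and ATP that AMPK senses, 6 were on the array and 4 passed the filter. NT5C2, a nucleotidase, differed by -0.01 for stress response, ADK, adenosine kinase, by -0.28, ADSL, which makes AMP, by 0.11, and AK3, an adenylate kinase of mitochondria, by -0.03. Of 12 related kinases that LKB1 also activates, 7 were on the array and 5 passed the filter. There SIK3 differed by -0.05, SIK2 by -0.01, MARK3 by 0.22, NUAK1 by -0.13 and MARK1 by -0.11. In both lists 0 passed either threshold for stress response, aggressiveness or the interaction. Between males and females 1 of the genes of these 4 lists had an unadjusted p under 0.05, against 5.21% of all probe sets. It was MARK1, with -0.39 (limma, adjusted p = 0.937). Within single levels of a factor there was 1 as well, MARK3 for stress response within high aggressiveness (0.40, adjusted p = 0.811), against 6.12% of all.

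Among 5810 named genes, those with the pattern most like PRKAG3 over the 12 arrays, by Pearson r of log2 values, were ZNF281, STK16, PIGU, PRPF38A and SLX1A. ZNF281, a zinc finger transcription factor, came first with r = 0.97. Its signals were 19.9 to 29.4 in high-high livers, against 70.7 to 188.4 in the other 9. Like PRKAG3 it was dim in all 3 high-high animals, and over the other 9 arrays alone r was 0.74. STK16, a kinase bound to Golgi membranes, had r = 0.91, with signals of 642.8 to 769.1 in high-high livers, against 850.6 to 1011 in the other 9. Its high-high animals were lower but far from dim, and over the other 9 arrays r was 0.45.

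PIGU, a subunit of the enzyme that attaches GPI anchors, had r = 0.90, with 261.5 to 280.7 in high-high livers, against 329.6 to 367.1 in the other 9. PRPF38A, a splicing factor, had r = 0.87, with 648.2 to 706.3 in high-high livers, against 752.2 to 864.4 in the other 9. SLX1A, a subunit of a DNA repair nuclease, had r = 0.85, with 249.6 to 300.3 in high-high livers, against 304.2 to 402.2 in the other 9. Over the other 9 arrays r was -0.09, 0.08 and 0.46 for these 3 genes, so the likeness of PIGU and PRPF38A to PRKAG3 rested on the separation of the high-high animals. The genes were ranked on these arrays, so their likeness is a description and has no test.

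**Figure D3:**
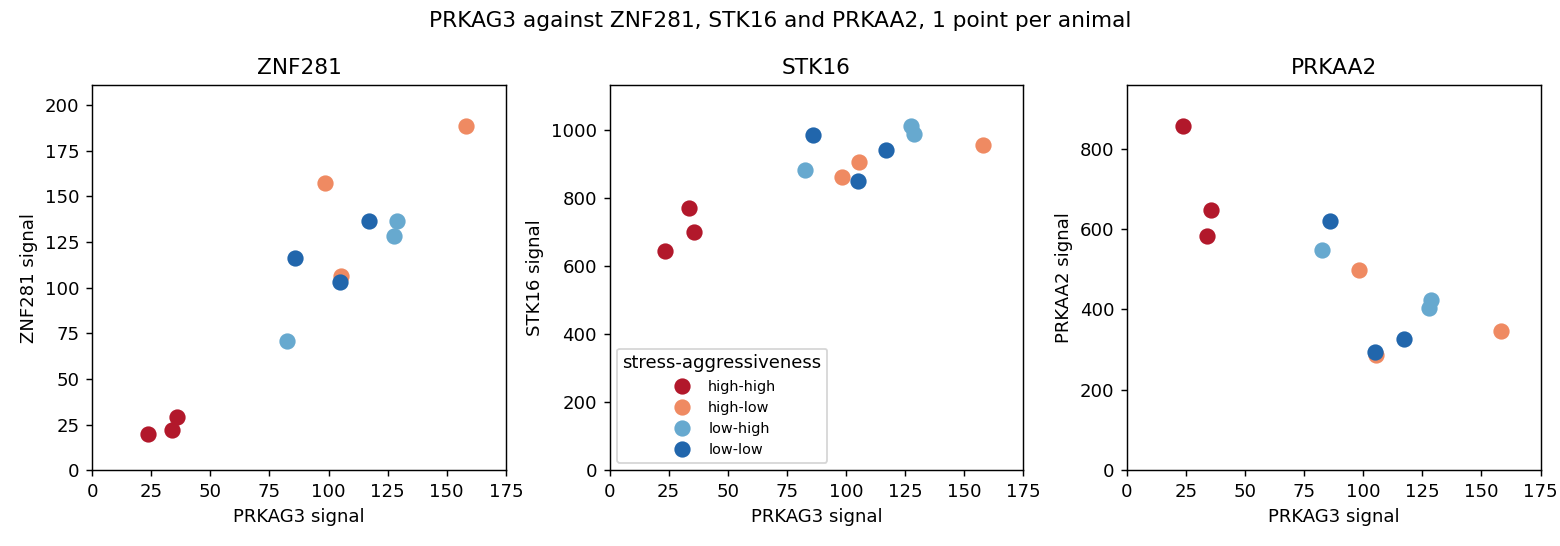
Signal of PRKAG3 (horizontal axes) against ZNF281 (left), STK16 (middle) and PRKAA2 (right), linear, 1 point per animal and colours by stress response and aggressiveness group. The 3 high-high animals lie at PRKAG3 signals of 23.6 to 35.7, at the lowest ZNF281 and STK16 signals and among the higher PRKAA2 signals.

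STK16 lies on the same chromosome as PRKAG3, 17 protein-coding genes away in the RefSeq order of Sscrofa11.1, which led to a look at the genes between and around them after these values were seen. Within 20 genes on each side, 18 genes had 24 tested probe sets. Of these, 1 probe set, the STK16 one, had all high-high animals below the other 9, against 0.356% of all probe sets, and it is the one that prompted the look. There were 0 with them above, against 0.506% of all. A second probe set of STK16 had r = 0.70 with PRKAG3. CYP27A1, a bile acid enzyme and the nearest measured neighbour, had r of 0.02, 0.31 and 0.37 for its 3 probe sets, and TTLL4, the next gene beyond it, 0.35. The 24 values ran from -0.57 to 0.91 with a median of 0.07. Neighbours without a tested probe set could not be seen, and the cause of the likeness of STK16 was not tested.

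**Figure D4:**
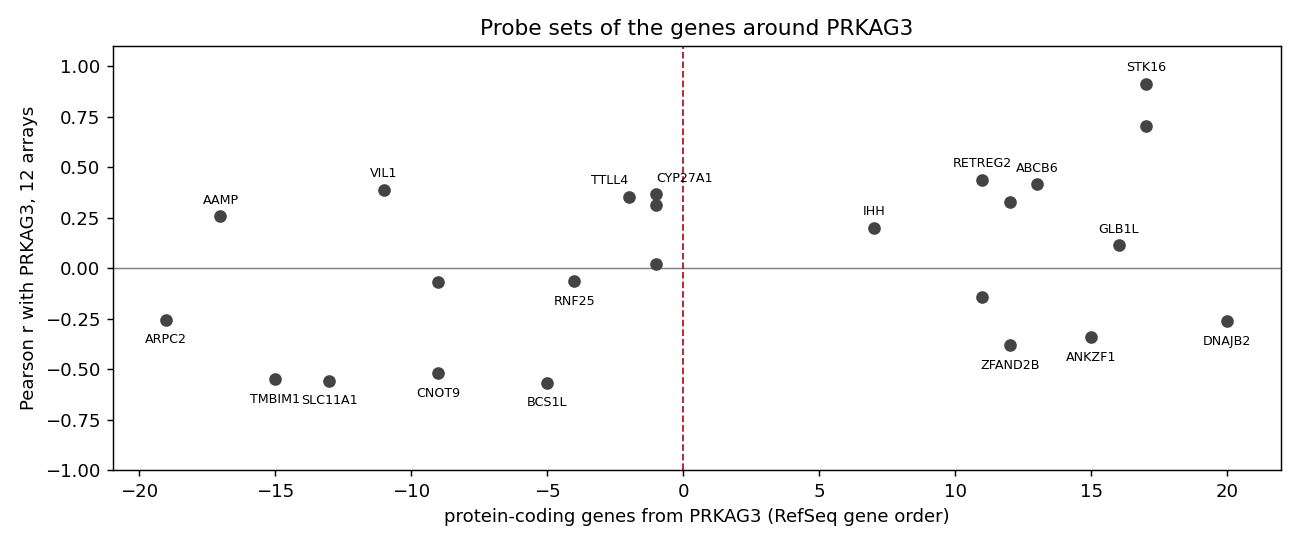
Pearson r with PRKAG3 over 12 arrays (vertical axis) for 24 probe sets of genes near it, against their distance in protein-coding genes (horizontal axis, 0 is PRKAG3). Both STK16 probe sets, 17 genes away, stand highest at 0.91 and 0.70, and the nearest neighbours lie between 0.02 and 0.37.

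The genes most like each other member, by the same measure on its brightest probe set, were different ones. For PRKAG1 they were MSX1 (r = 0.89), a homeobox factor, and LAMTOR2 (0.89), part of the Ragulator complex at the lysosome. For PRKAG2 they were TTLL12 (0.90) and ARL6IP1 (0.88), a membrane protein of the endoplasmic reticulum. For PRKAA1 they were DKK3 (0.90), a secreted glycoprotein, and CD200 (0.88), a surface glycoprotein. For PRKAA2 they were IK (0.88), a splicing factor, and PDCD5 (0.88). For PRKAB1 they were SCCPDH (0.88) and WASL (0.84), which drives actin assembly. For PRKAB2 they were SRP19 (0.93), part of the signal recognition particle, and ARMCX3 (0.91), a mitochondrial protein. No gene appeared for more than 1 member.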

How the data were processed

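The authors deposited linear intensity values per probe set, produced with GCOS 1.1.1 per the submitters' processing notes; probe summarisation is not given in the sources used here. The mean after trimming 2% was near 500.2 on every array, so arrays had been scaled. Of 24123 probe sets, 124 controls were left out, then 33.3% with the lowest mean, leaving 16000. Symbols came from the array's annotation (10099 probe sets with 1 symbol, 198 with several, 13826 with none).

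Values of log2(signal + 16) were fitted with limma 3.58.1 (R 4.3.3) on stress response, aggressiveness and sex (8 residual degrees of freedom), and again with the interaction (7). P-values were adjusted over the 16000 by Benjamini-Hochberg, with 0.05 as threshold. The pipeline was tested on simulated data. A listed gene was represented by its brightest tested probe set; named were all members, the 5 brightest genes of each list, any called gene, and the 5 or 2 genes most correlated with a member, while STK11, MARK1, MARK3 and the marker genes were named after their values were seen. Members and lists were chosen with earlier results of these data known. Gene order came from RefSeq (Sscrofa11.1). Alternatives were other constants (1 and 64), filters, normalizations, variance models, covariates and subsets of animals. Protein comparisons were not made. Figures used matplotlib 3.10.9 in Python 3.11.15.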

Additional observations from a re-analysis of the deposited data

Results flagged for a closer look

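Of 54 sets of 4 to 10 animals examined over the members, 3 held a value far from the others of its set, by a gap beyond a 95% critical value that chance passes in about 5% of sets. Among animals with high aggressiveness PRKAB2 was highest in high-high 3, with a signal of 266.8, and the next value was 88.6. That array was 1 of the 2 that correlated least with the rest. Among animals with low stress response PRKAG1 (first probe set) was highest in low-high 1, with 583.7 and a next value of 495.8. Among males PRKAA1 (first probe set) was lowest in low-low 2, with 69.9 and a next value of 103.9. In the second probe set of each gene, low-high 1 had 1723 for PRKAG1, the highest of the animals with low stress response, with 1628 next, and low-low 2 had 54.5 for PRKAA1, inside the range of the other males.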

How the results depend on the processing

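PRKAG3 was left without a test for stress response, aggressiveness, the interaction and the comparisons within levels. Of the other member probe sets, 0 passed in these under 12 alternatives or with any of the 12 animals left out. For sex PRKAG3 was tested as well. There 0 member probe sets passed under the 10 alternatives that give a sex difference and with each animal left out. The animal numbers used here run within each group, and equal numbers in different groups do not mark a pair. No paired analysis was possible because nothing ties animals of different groups. The differences of PRKAG3 kept their sign under every alternative that held it. With an added constant of 64 they were -1.03 for the interaction, -0.89 for stress response within high aggressiveness and -0.95 for aggressiveness within high stress response, and with a constant of 1 they were -2.04, -1.83 and -1.92. A stricter filter on dim probe sets removed PRKAG3, PRKAB2 and the second PRKAA1 probe set from the fit.

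Small differences that passed no threshold changed sign. For stress response, PRKAG1 (first probe set, 0.03) was -0.0084 with quantile normalization, -0.017 with median centring and -0.085 in males, and PRKAA1 (second probe set, 0.02) was -0.025, -0.025 and -0.226 in that order, -0.018 with array weights, -0.074 without both arrays that stood apart and -0.030 with the 3' to 5' ratio as covariate. For aggressiveness, PRKAG1 (first probe set, -0.01) was 0.010 in males and 0.048 with that covariate, and PRKAG1 (second probe set, 0.01) was -0.0081 with median centring, -0.0051 with array weights and -0.017 without both arrays. PRKAG2 (0.0028) was -0.0054 with a constant of 64, -0.016 with median centring, -0.043 with array weights and -0.171 without both arrays, and PRKAA1 (first probe set, 0.02) was -0.0029 with median centring and -0.026 with the covariate. The interaction of PRKAB2 (0.07) was -0.020 in males and -0.163 without both arrays, and the sex difference of PRKAG2 (-0.05) was 0.015 with median centring and 0.082 without both arrays. With single animals left out, stress response ran from -0.015 to 0.093 for PRKAG1 (first probe set), -0.064 to 0.119 for PRKAA1 (first probe set) and -0.078 to 0.107 for PRKAA1 (second probe set). Aggressiveness ran from -0.075 to 0.033 and -0.029 to 0.050 for the PRKAG1 probe sets in the order above, -0.165 to 0.088 for PRKAG2 and -0.103 to 0.079 for PRKAA1 (first probe set). The interaction of PRKAB2 ran from -0.457 to 0.535 and the sex difference of PRKAG2 from -0.178 to 0.074. The cause of these changes was not tested.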
